A study of Mus musculus with 10 samples.

Results

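RNA-seq libraries from male C57/Bl6 mouse embryonic stem cells (mESCs) were compared at passage 20 (p20) between suspension culture, named Keniry2022 here and New in the labels, and gelatin culture, named Mulas2019 here and Old in the labels. The comparison held 4 of the 10 libraries of the series, 2 for each method, and was fixed by the library labels alone. The cells were 2 lines derived from different embryos and grown in 2i/LIF medium throughout. Each line was established under the Keniry2022 conditions, sampled at passage 0 (p0), and then split between the methods. Under Keniry2022 the cells were kept on plates without tissue-culture treatment, at higher density, with more medium and daily passage. Under Mulas2019 they were kept on gelatin-coated treated plates, at lower density, with less medium and passage every other day. Libraries of equal passage therefore differed in days of culture, and attachment, density, medium volume and passage interval cannot be told apart in this design. The study's text gives low oxygen for the Keniry2022 cultures and states no oxygen level for Mulas2019. Whether oxygen differed between the methods is therefore not known here.

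Mouse ES cells are the cultured counterpart of the early epiblast, and in 2i/LIF they are held in the naive state by inhibition of MEK and GSK3 together with the cytokine LIF. They divide quickly, use both glycolysis and respiration, and express the core factors Pou5f1, Sox2 and Nanog. Nutrient, oxygen and unfolded-protein sensors adjust their transcription, through ATF4 when amino acids are limiting and through hypoxia-inducible factors when oxygen falls.

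The p20 libraries held 28031000 and 29474726 reads under Keniry2022 and 27692213 and 27447102 under Mulas2019. Values are log2 RPKM, the reads of a gene scaled to its exon length and to the reads of the library. Of the recovered reads, 88.8% and 88.7% fell in annotated features under Keniry2022 and 86.1% and 86.0% under Mulas2019. The number of features with at least 1 read was 17282 and 17345 under Keniry2022 against 17659 and 17549 under Mulas2019. All 30 markers of naive pluripotency were above the filter on low values. All 10 primitive endoderm, 6 mesoderm and 8 fibroblast or feeder markers were below 1 RPKM in every p20 library. The summed level of the naive markers was 4843 and 4827 RPKM under Keniry2022 and 4405 and 4456 RPKM under Mulas2019. For the primitive endoderm markers the sum was 2.18 and 2.58 RPKM against 2.81 and 2.78 RPKM. For the fibroblast markers it was 0.686 and 0.649 RPKM against 1.51 and 1.15 RPKM. The trophoblast and mesoderm sums were also lower in both Keniry2022 libraries, and those of the 2-cell-like state overlapped. The neuroectoderm sum went the other way, at 100.6 and 90.2 RPKM under Keniry2022 against 55.7 and 62.1 RPKM. Most of its reads came from Tubb3, at 4984 and 4659 against 2577 and 2891. In bulk RNA, fewer cells of a type and less RNA per cell cannot be told apart.

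Reads from 4 Y-linked genes (Ddx3y, Eif2s3y, Kdm5d and Uty) did not follow the replicate numbers at p20. The library labelled replicate 1 held 6659 of these reads under Keniry2022 and 13 under Mulas2019. The library labelled replicate 2 held 48 under Keniry2022 and 4578 under Mulas2019. At p0 and in both p10 groups the library labelled replicate 1 was the one low in Y-linked reads, at 43 to 132 reads against 5930 to 8140. One line was thus low in these transcripts before the split, and the p20 Keniry2022 numbers ran opposite to those of every other group. None of the 6 tested Y-linked features was called between methods, and the lines were not used to pair libraries in the test below.

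At p20 the methods differed in many genes by small amounts. Of 11654 features tested, 4280 (36.7%) passed an adjusted p of 0.05 in limma, 2163 (18.6%) higher and 2117 (18.2%) lower under Keniry2022. The median difference of the called features was 0.28 on the log2 scale among the higher and -0.40 among the lower, and the median size was 1.25-fold. A log2 difference of at least 1 was reached by 164 called features (1.41%), of which 37 were higher and 127 lower. The libraries of both methods did not overlap in any called feature, but this was also true of 69.8% of all features tested. The plot of the difference by expression level shows the called features and the genes that led them. Leaving out the library labelled Mulas2019 replicate 1 reduced the calls to 2243, and leaving out Keniry2022 replicate 1 reduced them to 2776. A model that included the p0 libraries called 249 features at p20, 71 higher and 178 lower. The p0 pair was further apart than any other, with an SD of the log2 difference between replicates of 0.613 against 0.229 to 0.265 in the other groups.

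**Figure D1:**
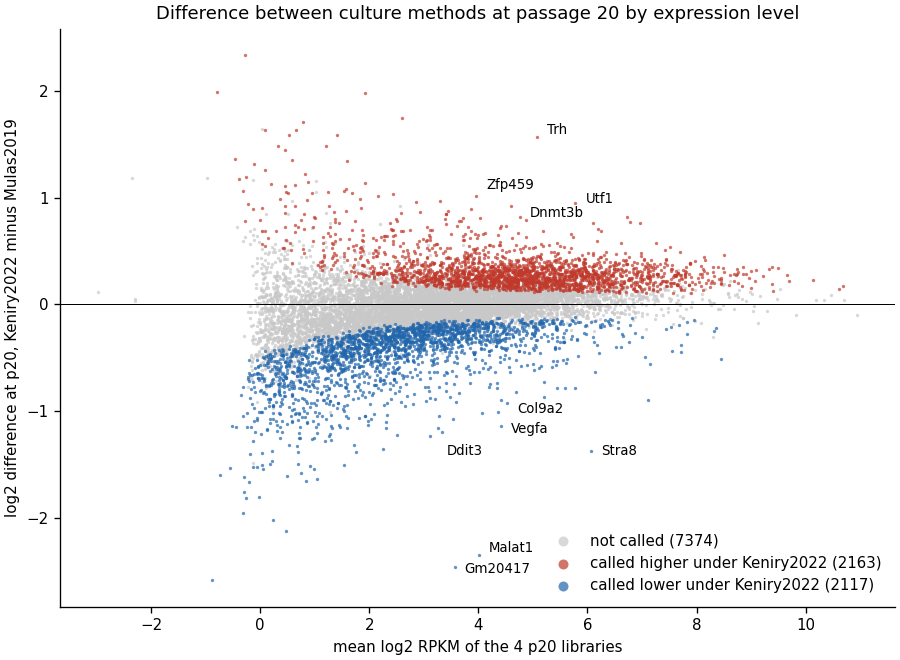
Log2 difference at p20, Keniry2022 minus Mulas2019, against the mean log2 RPKM of the 4 p20 libraries, 1 point for each of the 11654 features tested, with the 2163 called higher in red and the 2117 called lower in blue. Among features with a mean of at least 3, Malat1 and Gm20417 lie lowest and Trh highest.

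The largest changes among features with a mean of at least 3 log2 RPKM were in Gm20417 and Malat1, which overlap. Malat1 is a long noncoding RNA retained in the nucleus. Malat1 measured 2.76 and 2.91 log2 RPKM in the Keniry2022 libraries and 5.24 and 5.13 in the Mulas2019 libraries, against 3.63 and 3.15 at p0. The difference of -2.35 (SE 0.15), or 5.08-fold, passed the test (limma adjusted p = 0.000252). Gm20417, annotated inside Malat1 on the other strand, differed by -2.45. No source used here states that the counting was stranded, so reads of these overlapping features cannot be assigned to either one.

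Other transcripts led the features that were lower under Keniry2022. Stra8, a retinoic acid-responsive gene needed for entry into meiosis, measured 5.31 and 5.43 log2 RPKM against 6.95 and 6.55, a difference of -1.37 (SE 0.17). Ddit3, which encodes the stress-induced transcription factor CHOP, measured 2.76 and 2.69 against 3.97 and 3.88, a difference of -1.19 (SE 0.13). Vegfa, the angiogenic growth factor induced by low oxygen, measured 3.82 and 3.88 against 5.04 and 4.94, a difference of -1.14 (SE 0.06). In all 3 genes the p20 libraries of the methods were separated by more than the spread within either pair. H2-K1, a class I histocompatibility gene with close paralogs, differed by -1.04, the homeobox gene Cdx1 by -1.002, the hypoxia-induced Ndufa4l2 by -1.01, the kinase gene Alpk3 by -1.07 and the collagen gene Col9a2 by -0.93. Gm514, for which no role is given here, differed by -1.23.

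Mir196a-1, a microRNA gene in the Hoxb cluster, was among the 12 leading lower features but rested on few reads. Its 102-base precursor was covered by 22 and 16 reads under Keniry2022 and by 42 and 38 under Mulas2019, a difference of -1.15 (SE 0.15, limma adjusted p = 0.00159). These reads do not measure the mature microRNA. Its mature sequences in RefSeq are shown with the seed (bases 2 to 8) in capitals because the seed determines which transcripts a microRNA can pair with.
mmu-miR-196a-5p: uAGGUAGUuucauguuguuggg
mmu-miR-196a-1-3p: cAACGACAucaaaccaccugau

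Among features higher under Keniry2022 with a mean of at least 3 log2 RPKM, Trh, the thyrotropin-releasing hormone precursor gene that is active in naive ES cells, differed most. Trh measured 5.82 and 5.90 log2 RPKM under Keniry2022 against 4.16 and 4.43 under Mulas2019, a difference of 1.57 (SE 0.29), or 2.96-fold (limma adjusted p = 0.00494). Utf1, an epiblast chromatin factor, measured 6.16 and 6.35 against 5.31 and 5.30, a difference of 0.95 (SE 0.11). Dnmt3b, a de novo DNA methyltransferase, measured 5.20 and 5.13 against 4.21 and 4.48, a difference of 0.82 (SE 0.13). All 3 were higher in both Keniry2022 libraries than in either Mulas2019 library, which the rule for choosing the leaders required. The remaining differences among the 12 leaders were Zfp459 (1.02), Gm694 (0.97), 2410004A20Rik (0.92), the carbonyl reductase gene Cbr3 (0.90), Gm20509 (0.88), the cytochrome oxidase subunit gene Cox7b2 (0.85), Gm10664 (0.84), Gm15564 (0.82) and Aoah (0.81). Exons of 2410004A20Rik and of Gm20509 overlap the span of the other gene, and those of Gm15564 overlap the spans of Kpna1 and Parp9. These values are therefore uncertain. Other features named here have exons that overlap the span of a neighbour, introns included, and are uncertain in the same way. Among them are Ddit3 (with Mars), Ndufa4l2 (with Shmt2), Atf5 (with Nup62), Alpk3 (with Gm16012), Gm10664 (with Trim60 and Trim61) and Dnmt3b (with 7530422B04Rik). Whether the exons of such pairs overlap each other was not examined. Leaving out 1 p20 library ended the call of Gm694 (replicate 2 of either method), of Gm20509 (Keniry2022 replicate 2) and of Gm15564 (any of the 4).

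**Figure D2:**
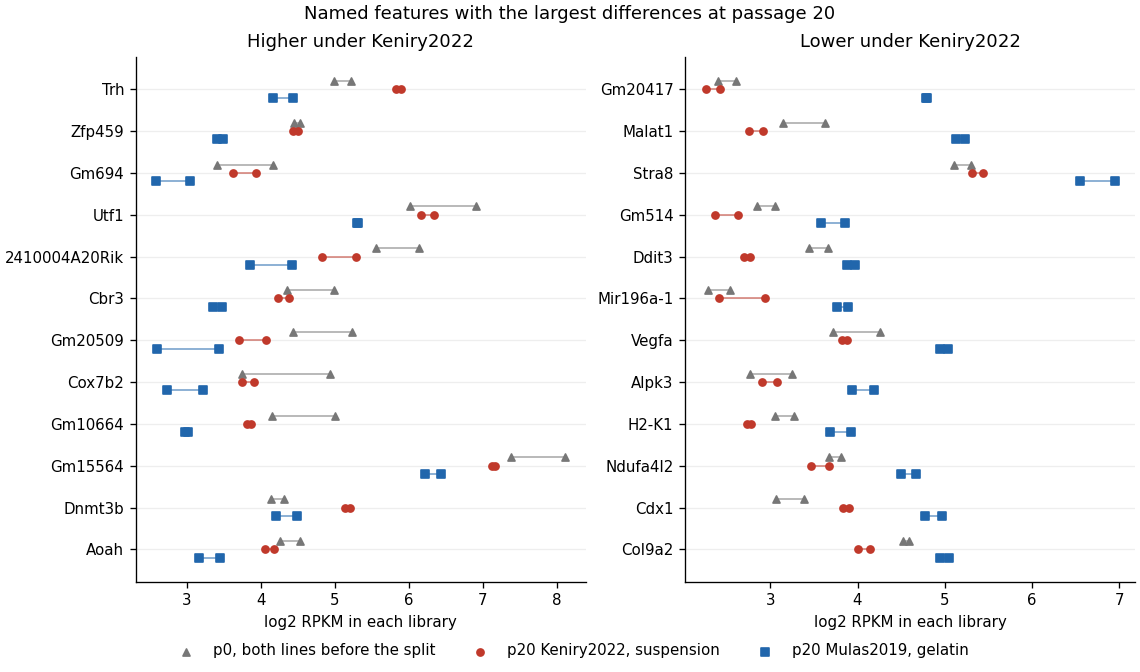
Log2 RPKM in each library for the 12 leading features in each direction, with the p0 libraries as grey triangles, p20 Keniry2022 as red circles and p20 Mulas2019 as blue squares, and a line joining the 2 libraries of a group. The red and blue points are separated in every row because only features without overlap between methods were selected. Differences run from -2.45 for Gm20417 to 1.57 for Trh.

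Under Keniry2022 most genes of the ATF4 pathway, through which cells respond to amino acid shortage and other stresses, were lower. Of 37 tested members, 30 were lower, 0 were higher and 7 did not pass, with a median difference of -0.53 (all features tested, -0.01). Slc1a5, a glutamine transporter, measured 5.37 and 5.40 log2 RPKM under Keniry2022 against 6.19 and 6.14 under Mulas2019, a difference of -0.78 (SE 0.04, limma adjusted p = 0.000218). Atf5, a transcription factor translated during stress, measured 3.97 and 3.95 against 4.91 and 4.80, a difference of -0.89 (SE 0.07). Gdf15, a secreted stress cytokine, measured 1.77 and 1.74 against 2.85 and 2.84, a difference of -1.10 (SE 0.09). The neutral amino acid transporter gene Slc1a4 differed by -0.63 (SE 0.05). The pseudokinase gene Trib3 differed by -0.81. Fgf21, a secreted metabolic hormone, had the lowest value of any feature tested, at -2.58, on 7 and 5 reads under Keniry2022 and 36 and 32 under Mulas2019. Atf4 itself measured 7.55 and 7.63 against 7.79 and 7.77, a called difference of -0.19. Cebpb (-0.53) did not pass, with libraries that overlapped at 0.96 and 1.40 against 1.35 and 2.07. The members of this list numbered 30 lower after correction for exon length and GC content, 35 lower after quantile normalisation and 12 lower in the model with the p0 libraries.

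Promoters of 3 members are shown because they carry the letters of the C/EBP-ATF response element, the composite site that ATF4 is known to bind. The search was for TGATGNAAN on both strands in the 250 bases before each start listed in RefSeq, build GRCm38.p6. A match was found in 9 of the 32 tested members with a listed promoter (28.1%). All 9 were called members, but so were 28 of the 32. The share with a match was 2.20% of the 8000 tested genes with a listed promoter and 3.89% of all 27025 listed genes. A match is a description of letters and not of binding. The 3 genes were chosen after their values were seen, and capitals mark the match.
Jdp2 (chr12:85599166-85599415, plus strand, match starting 33 bases before the start): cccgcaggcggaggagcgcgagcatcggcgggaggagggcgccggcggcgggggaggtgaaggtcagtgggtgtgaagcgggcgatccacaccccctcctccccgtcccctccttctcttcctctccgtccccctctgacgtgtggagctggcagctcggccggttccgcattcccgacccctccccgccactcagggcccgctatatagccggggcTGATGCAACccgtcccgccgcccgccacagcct
Nupr1 (chr7:126625471-126625720, minus strand, match starting 111 bases before the start): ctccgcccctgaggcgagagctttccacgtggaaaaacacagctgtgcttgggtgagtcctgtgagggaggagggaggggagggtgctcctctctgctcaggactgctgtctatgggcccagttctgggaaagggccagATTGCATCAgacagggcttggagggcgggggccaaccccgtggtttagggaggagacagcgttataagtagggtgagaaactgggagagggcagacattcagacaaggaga
Chac1 (chr2:119350992-119351241, plus strand, match starting 194 bases before the start): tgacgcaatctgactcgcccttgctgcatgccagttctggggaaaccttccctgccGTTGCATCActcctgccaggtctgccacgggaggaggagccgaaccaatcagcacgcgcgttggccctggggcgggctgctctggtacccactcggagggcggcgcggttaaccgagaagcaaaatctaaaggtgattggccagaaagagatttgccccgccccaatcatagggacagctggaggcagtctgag

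Jdp2, a leucine zipper repressor gene, measured 2.65 and 2.73 log2 RPKM under Keniry2022 against 3.57 and 3.43 under Mulas2019, a difference of -0.81. Nupr1, a stress-induced chromatin protein gene, measured 3.81 and 3.87 against 4.62 and 4.53, a difference of -0.74. Chac1, which encodes a glutathione-degrading enzyme, measured 3.54 and 3.50 against 4.25 and 4.09, a difference of -0.65. All 3 were lower in both Keniry2022 libraries than in either Mulas2019 library, as was every feature called lower.

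The other stress and amino acid lists did not move as one group. Cytosolic aminoacyl-tRNA synthetases, which charge tRNAs, split with 6 higher and 6 lower of 20. Rars (0.35) and Dars (0.25) were higher, and Gars (-0.27) and Sars (-0.29) were lower. After quantile normalisation, which equalises the distribution of values between libraries, 1 synthetase was higher and 11 were lower. Without Mulas2019 replicate 1 there were 2 higher and 4 lower. In the endoplasmic reticulum unfolded protein response 8 of 21 were higher and 5 lower, with the chaperone Hspa5 at 0.25 and the degradation factor Herpud1 at -0.63. The higher members numbered 1 after quantile normalisation and 3 to 5 without any 1 p20 library, and the lower members 1 without Keniry2022 replicate 1. Among threonine, glycine and folate one-carbon genes, 11 of 20 were higher and 6 lower. Leaving out any 1 p20 library left 5 to 7 higher, and 3 were lower without Mulas2019 replicate 1. Tdh, which ES cells use to break down threonine, measured 7.16 and 7.18 against 6.34 and 6.45, a difference of 0.77 (SE 0.06). The members that were lower included Aldh1l2 (-0.93), Shmt2 (-0.49) and Mthfd2 (-0.35), mitochondrial folate enzymes that are also in the ATF4 list.

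Targets of hypoxia-inducible factors were lower under Keniry2022, with 19 of 27 tested members lower, 0 higher and 8 not called, and a median difference of -0.41. P4ha2, a collagen prolyl hydroxylase gene, measured -0.07 and 0.06 log2 RPKM under Keniry2022 against 1.42 and 1.34 under Mulas2019, a difference of -1.38 (SE 0.14, limma adjusted p = 0.000715). Ddit4, an inhibitor of mTORC1 signalling, measured 6.76 and 6.55 against 7.61 and 7.48, a difference of -0.89 (SE 0.10). Vegfa and Ndufa4l2, described above, belong to this list. Stc1, a secreted glycoprotein gene, differed by -1.001, on 71 and 79 reads against 152 and 136. Members that did not pass included Pdk1 (-0.14), Kdm3a (0.13) and Bnip3l (0.13). The count was 16 lower and 1 higher after correction for exon length and GC content, 15 lower after quantile normalisation and 4 lower in the model with the p0 libraries. It was 11 lower without Mulas2019 replicate 1, and 12 without Mulas2019 replicate 2 or Keniry2022 replicate 2.

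Hypoxia-inducible factors are known to bind the core letters ACGTG. On either strand these letters were in the listed promoters of 15 of 20 members (75.0%) and of 11 of the 13 called members, against 26.3% of the 8000 tested genes and 18.5% of all listed genes. The search did not separate this site from longer motifs that contain it, such as CACGTG. The core letters were also in 9 of 19 glycolytic promoters (47.4%) and in 3 of the 8 called. CACGTG was in 8.54% of 82 ribosome biogenesis promoters, against 10.6% of tested genes. Letters of a sterol response element were in 1 of 15 sterol synthesis promoters (6.67%, tested genes 1.26%). Letters of an NRF1 site were in 3 of 66 mitochondrial ribosomal protein, 1 of 33 proteasome and 1 of 33 complex I promoters. That site was in 2.06% of tested genes. Promoters of 3 called members of the hypoxia list with a match, chosen after their values were seen, are shown with every match in capitals. In Bnip3 the matches on the 2 strands overlap.
Ddit4 (chr10:59951771-59952020, minus strand): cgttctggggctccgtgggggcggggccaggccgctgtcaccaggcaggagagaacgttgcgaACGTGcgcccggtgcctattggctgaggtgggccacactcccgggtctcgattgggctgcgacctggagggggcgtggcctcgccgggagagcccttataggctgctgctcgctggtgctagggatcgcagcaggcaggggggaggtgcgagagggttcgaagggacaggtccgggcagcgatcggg
Bnip3 (chr7:138909507-138909756, minus strand): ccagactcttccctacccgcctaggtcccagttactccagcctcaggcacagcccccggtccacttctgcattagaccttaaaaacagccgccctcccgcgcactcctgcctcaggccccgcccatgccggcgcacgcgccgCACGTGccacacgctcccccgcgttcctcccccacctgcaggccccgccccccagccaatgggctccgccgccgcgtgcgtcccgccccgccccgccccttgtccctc
P4ha2 (chr11:54100674-54100923, plus strand): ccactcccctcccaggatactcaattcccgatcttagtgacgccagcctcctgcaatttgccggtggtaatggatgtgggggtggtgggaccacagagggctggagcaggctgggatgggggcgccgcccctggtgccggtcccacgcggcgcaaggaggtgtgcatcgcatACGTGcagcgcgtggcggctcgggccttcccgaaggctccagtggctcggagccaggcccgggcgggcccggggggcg

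Bnip3, a mitophagy receptor gene, measured 5.51 and 5.29 log2 RPKM under Keniry2022 against 5.70 and 5.81 under Mulas2019, a called difference of -0.35.

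Glycolytic genes were lower in part. Of 19 tested, 8 were lower, 0 higher and 11 not called, with a median difference of -0.16. The phosphofructokinase gene Pfkl measured 6.53 and 6.32 log2 RPKM under Keniry2022 against 6.87 and 6.78 under Mulas2019, a difference of -0.40 (SE 0.07). Pfkp differed by -0.45, and the phosphoglucose isomerase gene Gpi1 by -0.31. Gapdh differed by -0.80 at low levels of 2.18 and 2.11 against 3.04 and 2.86, and its many processed pseudogenes make the value uncertain. Ldha, which makes lactate, did not pass at -0.17, with 9.15 and 8.95 against 9.24 and 9.20. The count was 13 lower after quantile normalisation, and 5 lower and 2 higher after correction for exon length and GC content. Without Mulas2019 replicate 1 it was 4 lower.

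Lipid synthesis genes were also lower in part. In sterol synthesis 10 of 22 were lower (15 after quantile normalisation, 6 without either Mulas2019 replicate) and 2 higher, with a median of -0.16, led by the final-step reductase Dhcr7 (-0.54) and by Tm7sf2 (-0.54). Hmgcs1, an early enzyme of that pathway, was higher by 0.20, but the call was lost under quantile normalisation (0.03) and under correction for exon length and GC content (0.12). In fatty acid synthesis 8 of 14 were lower (4 without Keniry2022 replicate 2, 5 without Mulas2019 replicate 1) and 0 higher, with a median of -0.16. The desaturase Scd2 measured 7.49 and 7.54 against 7.93 and 7.86, a difference of -0.38 (SE 0.04), and the regulator Srebf1 differed by -0.32.

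Genes of attachment and matrix were of interest because the methods differ in the culture surface. Basement membrane and matrix genes included 9 lower and 1 higher of 18, with a median of -0.34. Serpinh1, a collagen chaperone, measured 5.89 and 5.77 log2 RPKM under Keniry2022 against 6.49 and 6.44 under Mulas2019, a difference of -0.63 (SE 0.06). The collagen IV gene Col4a1 measured 1.83 and 1.93 against 2.75 and 2.49, a difference of -0.74 (SE 0.10). Timp1, an inhibitor of matrix proteases, was higher, at 4.71 and 4.64 against 4.01 and 4.22, a difference of 0.56 (SE 0.07). The summed level of the fibroblast markers, given above, was also lower under Keniry2022, mostly through Pdgfrb, at 40 and 25 reads against 148 and 105. Col1a1 had 29 and 35 reads against 45 and 48, and Thy1 had 11 and 14 against 12 and 7. Of the 8 markers 4 were at 0 reads in all p20 libraries. The part of the fibroblast markers in the matrix result was not tested. With exon length and GC content taken into account, the median of the matrix genes was -0.16.

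Integrins and focal adhesion genes changed little, with 2 higher and 3 lower of 17 and a median of -0.01. Itga5, a fibronectin receptor subunit, was lower by 0.63 on the log2 scale at 4.13 and 4.38 against 5.03 and 4.75, and the kindlin gene Fermt2 was higher by 0.36. In the E-cadherin and epithelial adhesion list 2 of 21 were higher and 7 lower. Jup (plakoglobin) was higher by 0.53, and the desmosomal Dsp (-0.83) and the claudin Cldn6 (-0.77) were lower. Of 15 tested YAP and SRF targets, 2 were higher and 2 lower, a called share of 26.7% against 36.7% of all features tested. Anxa1 had the largest difference, 1.48, and Tead1 differed by -0.29. The higher calls depended on single libraries. They numbered 1 with the replicate block and 0 in the model with the p0 libraries.

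Genes of protein synthesis, folding and turnover were higher under Keniry2022, by small amounts. In ribosome biogenesis 66 of 96 were higher and 2 lower, with a median of 0.23. Nhp2, a snoRNP protein gene, measured 7.76 and 7.79 log2 RPKM under Keniry2022 against 7.24 and 7.23 under Mulas2019, a difference of 0.54 (SE 0.04, limma adjusted p = 0.000364). Among proteasome subunits 31 of 40 were higher and 0 lower, with a median of 0.27, and the ATPase subunit Psmc2 differed by 0.36. Among heat shock and CCT chaperones 17 of 25 were higher and 1 lower, with a median of 0.27. Hsph1 measured 6.40 and 6.53 against 5.88 and 5.87, a difference of 0.59 (SE 0.05), and the co-chaperone Bag3 was the 1 that was lower (-0.63). Among subunits of RNA polymerases I and III, 8 of 16 were higher and 1 lower.

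Mitochondrial genes went the same way. Among mitochondrial ribosomal proteins 41 of 75 were higher and 0 lower, with a median of 0.21 and Mrpl52 at 0.48. Among complex I subunits 17 of 37 were higher and 1 lower, and among subunits of complexes II to V 25 of 44 were higher and 2 lower. The tested subunits were all encoded in the nucleus, since the 13 mitochondrially encoded features were listed at 0 reads. Cytosolic ribosomal proteins included 41 higher and 9 lower of 83. Rpl10a, at 3.95 and 3.94 against 4.75 and 4.69, was the most clearly lower (-0.78). Ribosomal protein genes have many near-identical processed pseudogenes, and counting could split reads between the copies.

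These lists consist mostly of abundant transcripts, and the share of features called higher moved with abundance. Of all tested features with a mean of at least 5 log2 RPKM, 46.5% were called higher. At that level the share was 89.3% of 28 proteasome subunits, 82.7% of 52 ribosome biogenesis genes and 75.0% of 20 chaperones. It was 68.0% of 50 cytosolic and 64.0% of 25 mitochondrial ribosomal proteins. Among respiratory subunits it was 54.5% of 33 in complexes II to V and 52.0% of 25 in complex I. Quantile normalisation left 38 ribosome biogenesis genes, 17 proteasome subunits and 10 chaperones called higher. It also left 34 mitochondrial and 14 cytosolic ribosomal proteins, 6 complex I subunits and 10 subunits of complexes II to V called higher. Called lower were 8 cytosolic ribosomal proteins, 5 ribosome biogenesis genes, 4 subunits of complexes II to V and 2 chaperones. The list medians remained above 0, at 0.04 to 0.17 in these lists. In the model with the p0 libraries at most 1 member of each of these lists was called higher. Without Mulas2019 replicate 1 the higher members numbered 27 cytosolic and 27 mitochondrial ribosomal proteins, 10 complex I subunits and 3 subunits of RNA polymerases I and III. Without Keniry2022 replicate 1 they numbered 24 cytosolic ribosomal proteins and 9 complex I subunits.

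NRF2 antioxidant genes included 11 higher and 0 lower of 24. Cbr3, given above, and the quinone reductase Nqo1 (0.49) belong here, and Gsr, glutathione reductase, measured 6.73 and 6.69 log2 RPKM against 6.30 and 6.32, a difference of 0.40. After quantile normalisation 6 members were higher and 4 lower, and without replicate 1 of either method 7 were higher.

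The core pluripotency factors differed little. Nanog measured 8.81 and 8.78 log2 RPKM under Keniry2022 against 8.68 and 8.72 under Mulas2019 and did not pass, with a difference of 0.09 (95% interval -0.02 to 0.21). For Sox2 the difference was -0.11 (95% interval -0.23 to 0.01), for Esrrb 0.03 (-0.06 to 0.11) and for Tfcp2l1 0.00 (-0.17 to 0.18), none of them called. Under quantile normalisation Nanog, Esrrb and Tfcp2l1 turned negative without passing, and Sox2 passed at -0.27 (and at -0.17 after correction for exon length and GC content). Sox2 lies on chromosome 3, whose median level differed between the libraries of each method. Pou5f1, which encodes OCT4, was higher, at 8.64 and 8.67 against 8.35 and 8.36, a difference of 0.30 (SE 0.04, limma adjusted p = 0.00155). Zfp42 (REX1) was higher by 0.26. Klf4, a target of LIF signalling, was lower, at 5.18 and 5.23 against 5.64 and 5.57, a difference of -0.40 (SE 0.06).

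Over all 30 naive markers, 10 were higher, 2 lower and 18 not called, so that 40.0% were called, against 36.7% of all features tested. The largest was Nr0b1, an X-linked nuclear receptor gene, at 6.54 and 6.63 against 5.85 and 5.95, a difference of 0.69 (SE 0.07). Fbxo15 was higher by 0.44. At a mean of at least 5 log2 RPKM 38.1% of 21 naive markers were higher, against 46.5% of all features at that level. After quantile normalisation 7 naive markers were higher and 6 lower, and the list's median went from 0.09 to -0.03.

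Formative and primed markers, which rise as the epiblast leaves the naive state, included 7 higher and 2 lower of 17, with a median of 0.31. Utf1, Dnmt3b, Hesx1 (0.80), Dnmt3l (0.62) and Lefty2 (0.54) were higher. The early formative markers Otx2 and Fgf5 were below the filter, with 25 to 48 and 8 to 15 reads across the p20 libraries. The count was 9 higher under quantile normalisation and under correction for exon length and GC content, 4 higher without Keniry2022 replicate 2 or Mulas2019 replicate 1, and 2 higher in the model with the p0 libraries.

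Genes of DNA methylation and of loci that methylation silences changed in part. Of 15 genes of the methylation machinery 5 were higher, among them the chromatin remodeller Hells (0.39) together with Dnmt3b and Dnmt3l, and 2 were lower, the demethylases Tet3 (-0.68) and Tet2 (-0.25). Without Mulas2019 replicate 1 there were 3 higher, and the median of 0.09 went to -0.02 under quantile normalisation. Of 22 germline genes 8 were higher (5 without Keniry2022 replicate 1), with Stk31 at 0.58 and Tex19.1 at 0.46, and Stra8 was the 1 lower. After correction for exon length and GC content 5 germline genes were higher and 3 lower, and their median went from 0.20 to 0.07. The share called was 46.7% of the methylation machinery, 40.9% of germline and 31.2% of imprinted genes, against 36.7% of all features tested. Of 32 imprinted genes 9 were lower, including Peg12 (-0.80), and 1 was higher. That gene was Mest, paternally expressed, at 4.21 and 4.35 against 3.56 and 3.67, a difference of 0.66 (SE 0.06). Among other lineage markers Tubb3, a neuronal tubulin gene, was higher by 0.76, Eomes was lower by 0.51, and Nes (-0.09) and Ascl2 (0.21) did not pass.

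Cell cycle genes differed modestly. In DNA replication 18 of 36 were higher and 1 lower, with Pcna, the polymerase clamp, at 0.31 and Rpa2 at 0.36. Quantile normalisation left 8 higher and 2 lower. In mitosis 9 of 29 were higher and 1 lower, and quantile normalisation left 1 higher and 4 lower. Without replicate 1 of either method 3 mitosis genes were higher, and without Mulas2019 replicate 2 there were 5. At a mean of at least 5 log2 RPKM 31.8% of 22 mitosis genes were higher, against 46.5% of all features at that level. Of 17 G1 cyclins and inhibitors, Cdk4 alone was higher (0.20) and 4 were lower (2 without any 1 p20 library). The CDK inhibitor Cdkn1b measured 2.92 and 2.91 log2 RPKM under Keniry2022 against 3.54 and 3.41 under Mulas2019, a difference of -0.56 (SE 0.08). Of 24 p53 targets 9 were lower, including Cdkn1a (p21) at -0.30 and Plk2 at -0.33, and 3 were higher, including Bax at 0.27. After quantile normalisation 1 was higher. Of 10 MYC network genes 4 were higher and 1 lower, and 1 was higher after quantile normalisation or without Keniry2022 replicate 1, Keniry2022 replicate 2 or Mulas2019 replicate 1. Mycn was higher by 0.43. Myc was higher by 1.26 (SE 0.28), from 0.27 and 1.18 against -0.65 and -0.41, and its call was lost without Mulas2019 replicate 1.

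Readouts of the pathways that 2i/LIF acts on were mixed, and rested on so few calls that leaving out Mulas2019 replicate 1 left 1 higher member each in the ERK, WNT and LIF lists. Of 13 ERK feedback and early genes 3 were higher, Etv5 (0.29), Dusp6 (0.67) and Etv4 (0.34), and 2 were lower. Of 8 WNT targets the feedback gene Sp5 (0.82) and Tcf7l1 (0.23) were higher and Cdx1 was lower. Of 15 LIF, JAK and STAT3 genes 2 were higher, with the inhibitor Socs2 at 0.61, and 3 were lower. The share called was 38.5% of the ERK, 37.5% of the WNT and 33.3% of the LIF list. Each was near the 36.7% of all features tested. Of 37 lysosome and autophagy genes 6 were higher and 11 lower. Without any 1 of the p20 libraries 1 to 4 were higher, with 1 when replicate 2 of either method was left out, and 4 to 9 were lower, with 4 without Mulas2019 replicate 1. Of 14 tested replication-dependent histone genes 3 were lower and 0 higher. These histone transcripts lack poly(A) tails and were near the filter. Of 5 snoRNA host noncoding RNAs 4 were lower, led by Snhg11, at 1.07 and 1.07 against 2.38 and 2.39, a difference of -1.31 (SE 0.10).

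**Figure D3:**
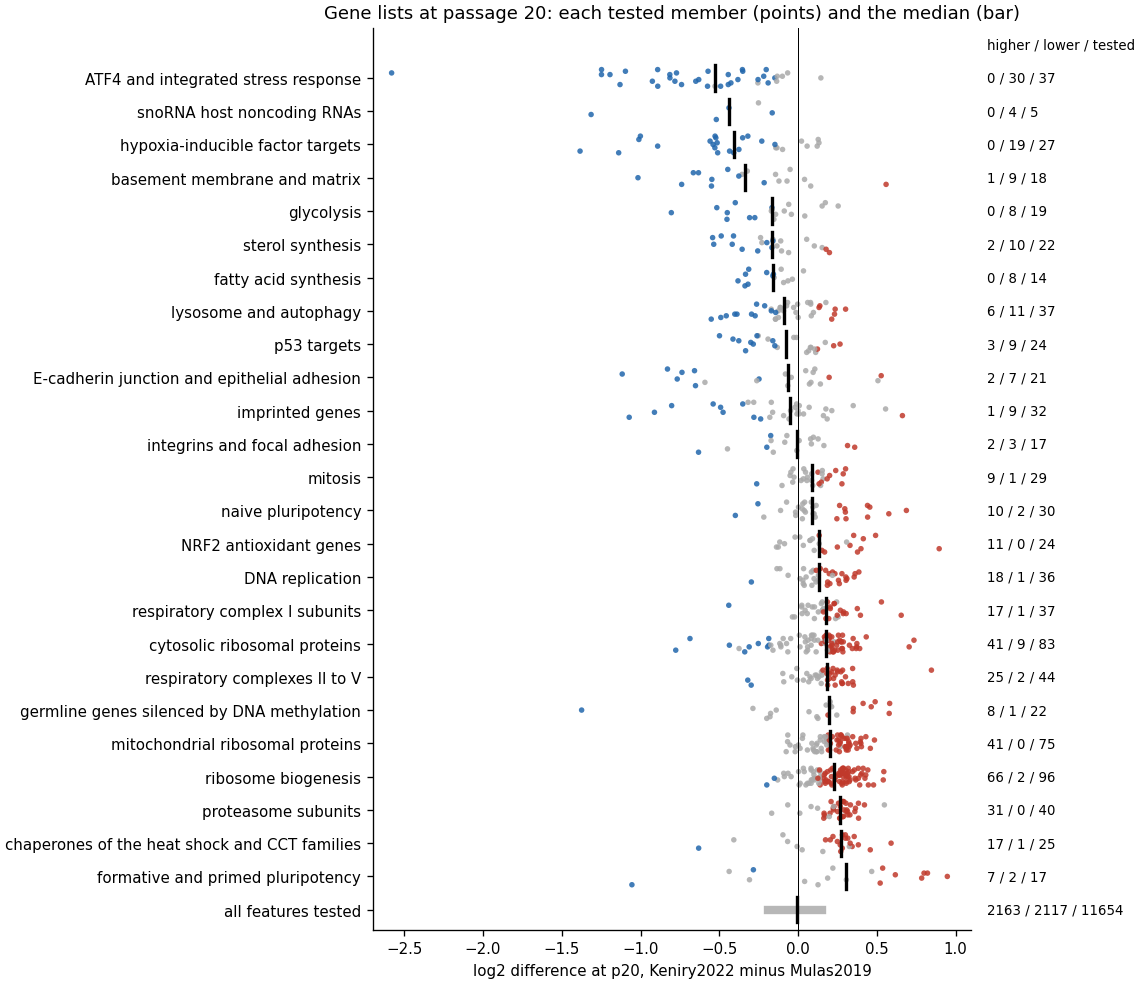
Log2 difference at p20, Keniry2022 minus Mulas2019, of each tested member (points) of 25 gene lists, ordered by median (black bar), with members called higher in red, called lower in blue and not called in grey, and the range between the lower and upper quartiles of all features tested as a grey bar. The ATF4 list has the lowest median, at -0.53 with 30 of 37 members lower, and the formative and primed list the highest, at 0.31.

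At p10 the same contrast called more features, 5631 (48.3%), with 2890 higher (24.8%) and 2741 lower (23.5%). Of the p20 calls, 3292 were also called at p10 in the same direction (76.9% of the p20 and 58.5% of the p10 calls), and 17 in the opposite direction. Differences were smaller at p20, with an SD across features of 0.318 against 0.384 at p10. Among the shared calls 1104 were larger at p20. Across the features tested, which are not independent replicates, Pearson's r between the p20 and p10 differences was 0.79 with a slope of 0.65. The passages use different libraries of the same lines.

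The hypoxia and glycolysis lists lay closer to 0 at p20 than at p10, with medians of -0.41 against -0.81 and of -0.16 against -0.57. The absolute difference was smaller at p20 in 24 of 27 hypoxia targets and in 16 of 19 glycolytic genes. The ATF4 list moved less, from -0.65 to -0.53, with 29 of its members called in the same direction at both passages. Ribosome biogenesis (0.22 and 0.23) and proteasome medians (0.26 and 0.27) were nearly equal at p10 and p20. The basement membrane median moved away from 0, from -0.16 to -0.34.

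Malat1 was among the features with a larger difference at p20, -2.35 against -0.89 at p10. Its difference between passages was -1.46 (SE 0.21, limma adjusted p = 0.069 for the interaction of method and passage). No feature passed in that interaction test, in which 1836 features had an unadjusted p under 0.05 and the lowest adjusted p was 0.0636, for Gm20417. The count was 88 with voom on the recovered reads, 17 with the labelled replicate numbers as a block and 0 with the p20 Keniry2022 numbers crossed. A change of a named gene or list between p10 and p20 was thus not established by the main test.

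**Figure D4:**
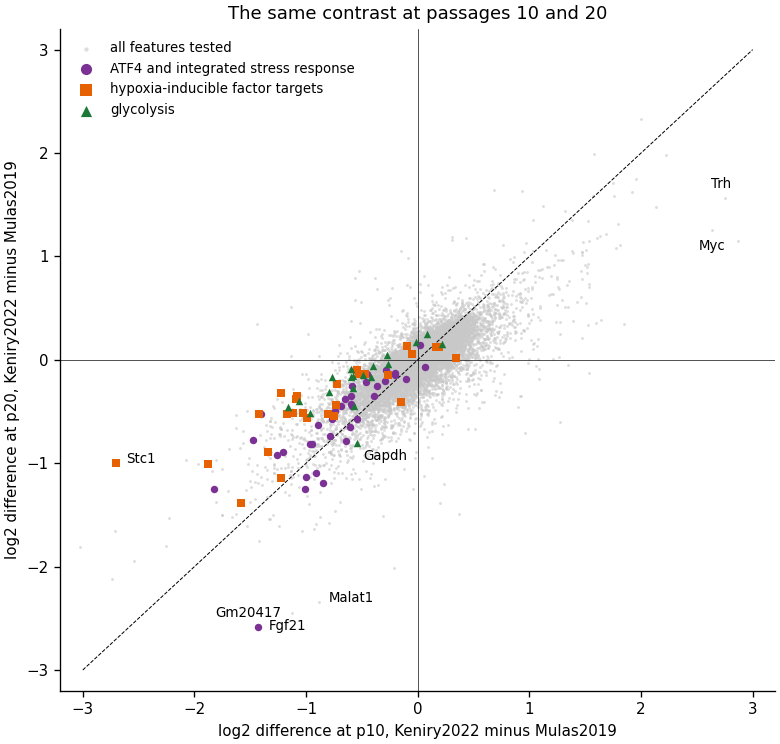
Log2 difference between methods at p20 against that at p10 for all 11654 features tested (grey), with the ATF4, hypoxia and glycolysis lists coloured and the line of equal differences dashed. Most hypoxia and glycolysis points lie between the dashed line and 0 on the p20 axis, and Malat1 and Gm20417 lie below the line.

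The p0 libraries gave a common origin for both methods. In 3393 of the 4280 features called at p20 (79.3%), the Keniry2022 mean was the nearer to the p0 mean. The share was 75.6% against p0 replicate 1 alone and 80.0% against p0 replicate 2 alone. These shares were worked out for the called features only, and no share over all features tested stands beside them. Features called higher lay a median of 0.11 below p0 under Keniry2022 and 0.41 below under Mulas2019 on the log2 scale. For those called lower the medians were 0.08 above and 0.51 above p0. The p0 cells had been grown under the Keniry2022 conditions, so passage and method cannot be told apart in the distance from p0. Dnmt3b was an exception, at 4.14 and 4.31 at p0 against 5.20 and 5.13 under Keniry2022 and 4.21 and 4.48 under Mulas2019.

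Direction was related to the abundance, length and base composition of the transcript. Of features with a mean below 1 log2 RPKM, 3.97% were called higher and 26.2% lower, against 46.5% and 7.39% of those at 5 or more. In the quartile of features with the shortest exons 27.6% were higher and 10.6% lower, and in the quartile with the longest 8.62% were higher and 26.9% lower. In the quartile with the lowest GC content 24.8% were higher and 9.73% lower, and in the highest 13.2% and 25.3%. Processed pseudogenes were more often higher (39.2%) than lower (3.23%), and lincRNAs more often lower (21.4%) than higher (5.71%). Correcting each library for exon length and GC content gave 3930 calls, of which 3159 were also called without the correction. The part of these properties in single results was not tested beyond the values given above for the lists.

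**Figure D5:**
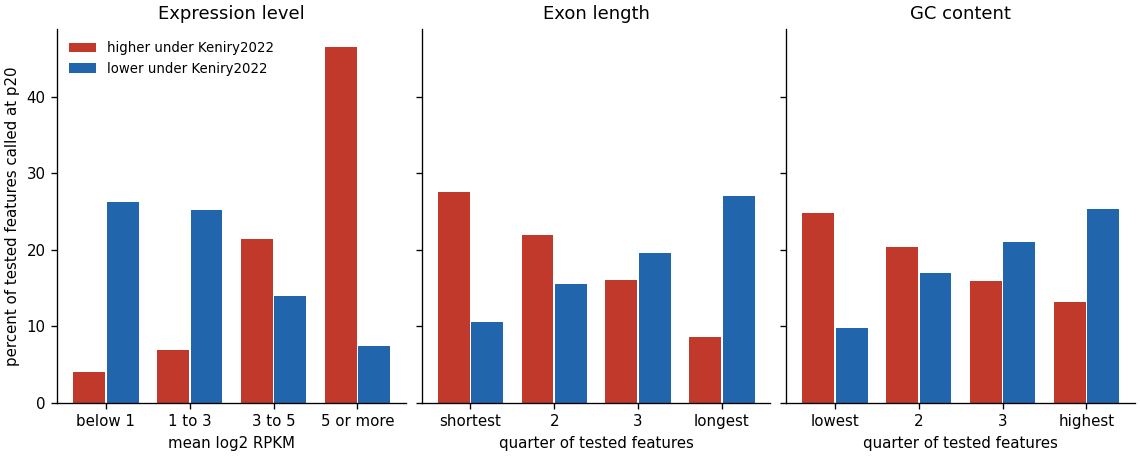
Percent of tested features called higher (red) and lower (blue) under Keniry2022 at p20, by mean log2 RPKM, by quartile of exon length and by quartile of GC content. The higher share goes from 3.97% to 46.5% with level, and the lower share from 10.6% to 26.9% with length.

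No autosome stood apart as a whole. The median difference was between -0.03 on chromosome 3 and 0.05 on chromosome 13. Chromosome 3 differed within the methods, however. Over its 531 tested features the library labelled replicate 1 minus that labelled replicate 2 had a median of 0.14 under Keniry2022 and of -0.17 under Mulas2019, whereas on every other autosome these medians lay between -0.02 and 0.03. The signs were opposite between the methods, as for the Y-linked reads. Between methods, the median of chromosome 3 was 0.12 for the libraries labelled replicate 1 and -0.20 for those labelled replicate 2. With the numbers crossed it was -0.04 for Keniry2022 replicate 1 minus Mulas2019 replicate 2. For Keniry2022 replicate 2 minus Mulas2019 replicate 1 it was -0.03. On the X chromosome the median difference between methods was 0.06, with 23.5% of 391 features higher and 10.2% lower.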

How the data were processed

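Total RNA from 10 libraries was sequenced as single-end reads. The authors aligned them to mm10 (HISAT2 per the study, TopHat2 2.0.12 per the submitters' processing notes) and quantified genes in SeqMonk. The deposited values are log2 RPKM per feature, although their table is named logCPM, with 0 reads entered as 0.9 reads. They step by whole reads, so reads and exon lengths were recovered for 25965 features (25327 matched to GENCODE vM21). Differences were fitted on the deposited log2 values in 8 libraries (p10 and p20, 2 per group) with limma 3.58.1 in R 4.3.3 (trend, 4 residual degrees of freedom, Benjamini-Hochberg adjustment), for features above 0 in 50% of libraries. No source says that culture replicates beyond the 2 lines were taken, and p-values measure only the spread between these libraries. The script was tested on simulated data.

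The 43 lists, the comparison and the tests were chosen with earlier results of these data known. Named features were the 12 largest called differences in each direction with a mean log2 RPKM of at least 3 whose libraries did not overlap between methods, up to 4 list members with the lowest p (2 in the opposite direction), core pluripotency genes, interaction calls and Y-linked genes. Other names were chosen after their values were seen. Same-numbered libraries should share a line: their deviations correlated at 0.63 between the p10 groups and at -0.70 between the p20 groups (0.32 and -0.39 over autosomes), and the fit had no block. Alternatives covered filters, scaling, a pseudocount of 1 RPKM, voom, the replicate block, weights, length and GC, other sets of libraries and leaving out each library.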

Additional observations from a re-analysis of the deposited data

Results flagged for a closer look

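In 5 named genes the libraries of the methods were separated in one direction at p20 and in the opposite direction at p10, as they were in 423 of all features tested. Srf differed by 0.1577 at p20 and by -0.08 at p10, with a limma adjusted p of 0.182 for the interaction of method and passage. Cox6b2 differed by -0.3193 and 0.22 (adjusted p = 0.0788). H2-D1 differed by -0.4227 and 0.13 (adjusted p = 0.29), and B2m by -0.3466 and 0.21 (adjusted p = 0.14). Dppa3 differed by 0.5762 and -0.57 (adjusted p = 0.104). None passed the interaction test.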

How the results depend on the processing

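The count of features called at p20 stayed within 1.5 times of 4280 under every alternative except the model with all 10 libraries (249, of which 246 were also called in the 8-library model), leaving out Mulas2019 replicate 1 and leaving out Keniry2022 replicate 1. Leaving out each library in turn gave 2243 to 4162 calls. The share called higher was 50.5%, against 43.7% with no filter, 60.7% with log2 above 2 and 56.1% after median centring. The replicate block gave 4110 calls at p20 and, with the p20 Keniry2022 numbers crossed (added after the pairing check), 4378. At p10 all 10 libraries gave 986 calls. The interaction, with 0 calls, gave 4 with no filter, 2 with log2 above 2, 88 with voom, 17 with the replicate block, 3 with correction for length and GC, and 0 to 22 when leaving out a library. Of 204 named genes called, 146 kept direction and call under every alternative but all 10 libraries, and 156 lost the call in that one. The block ended the calls of Spred1, Jak1, Pim1, Il6st and Srf among named genes and added Notum. Of 37 list medians, 14 changed sign under an alternative.

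Signs turned in uncalled genes. Quantile normalisation gave Nanog at p20 -0.0771, Esrrb at p20 -0.1066, Tfcp2l1 at p20 -0.1646, Nes at p20 0.0034 and Kdm5d at p20 -0.1178. Correction for length and GC gave Nanog at p20 -0.0170, Nes at p20 0.0532 and Id4 at p20 -0.0215. When each library was left out in turn, Esrrb at p20 lay between -0.0040 and 0.057, Tfcp2l1 at p20 between -0.0977 and 0.1033 and Id4 at p20 between -0.1641 and 0.3383. For the Y-linked genes the range was -2.9323 to 4.2303 for Ddx3y at p20, -2.8390 to 5.2025 for Eif2s3y at p20, -4.2622 to 4.6903 for Kdm5d at p20 and -3.7604 to 5.2486 for Uty at p20, since 1 library of each method was low in Y-linked reads. The cause of the other changes was not tested.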

Other observations

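The genes in this part were chosen after their values were seen. Neat1, the noncoding RNA that scaffolds paraspeckles and a chromosomal neighbour of Malat1, measured 0.21 and 0.10 log2 RPKM in the p20 Keniry2022 libraries and 1.57 and 1.76 in the Mulas2019 libraries, against 0.21 and 0.07 at p0. Its difference was -1.51 (SE 0.13, limma adjusted p = 0.000437), compared with -0.31 at p10. Ccnl2, a cyclin of splicing speckles, differed by -0.60 at p20 and -0.12 at p10. The splicing factor Srsf5 differed by -0.53 and -0.13, and D4Wsu53e by -0.78 and -0.19. In each of these the difference at p20 was the larger, and none passed the test of the difference between passages (adjusted p between 0.069 and 0.076). Srsf7, of the same family as Srsf5, was higher by 0.22.

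Id1 and Id3, inhibitors of helix-loop-helix factors and known targets of BMP signalling, were among the largest positive differences at lower levels. Id1 measured 0.70 and 1.11 log2 RPKM under Keniry2022 against -0.84 and -0.60 under Mulas2019, a difference of 1.63 (limma adjusted p = 0.00104). Id3 measured 2.13 and 2.28 against 0.48 and 0.76, a difference of 1.59 (adjusted p = 0.00096). Id2 was higher by 0.70, and Id4 did not pass at 0.09. The antigen-processing gene Tap1, whose exons overlap the span of Psmb9, was lower by 1.09 on the log2 scale. B2m was lower by 0.35, and H2-D1 did not pass at -0.42.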
